A study of Mus musculus with 6 samples.

Results

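The genes described here encode the platelet-derived growth factors (PDGFs), the angiopoietins and their receptors, through which endothelial cells and the mural cells around them signal to each other. They were chosen by symbol and comprised the PDGF ligands Pdgfa, Pdgfb, Pdgfc and Pdgfd, the PDGF receptors Pdgfra and Pdgfrb, the angiopoietins Angpt1 and Angpt2, and the angiopoietin receptor Tek with its relative Tie1, which made 10 of the 52081 genes listed for every library. Mouse fracture calluses were studied by droplet-based single-cell RNA sequencing, in which the 3′ ends of transcripts are counted as unique molecular identifiers (UMIs). The femurs of 12-week-old mice, described as male, were fractured and calluses were collected at 14 days post fracture (dpf).

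The control group (CON, n = 3 libraries) was labelled wt and is named Piezo1 f/f in the study's methods, so its mice carried floxed alleles of Piezo1, a mechanically gated ion channel. The CKO group (n = 3 libraries) was Col2CreERT2; Piezo1 f/f, called Piezo1Col2a1, in which tamoxifen-inducible Cre is driven by the Col2a1 promoter of chondrocytes. Its label reads Col2CreERT; Piezo3-/-, whereas the text of the series names Piezo1. Both groups received tamoxifen at 75 mg/kg for 5 days from day 5 after fracture. Endothelial and mural cells are not among the cells in which the Col2a1 promoter is best known to be active. The labels say that a callus was isolated from each mouse, but they do not tie a library to an animal, and if a library is not a separate animal the p-values measure only the spread between these samples.

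PDGF-B released by endothelial cells acts on PDGFR-β at the surface of pericytes and smooth muscle cells and draws them to growing vessels, while PDGF-A and PDGF-C act mainly through PDGFR-α on mesenchymal cells. Angiopoietin-1 from perivascular cells activates the endothelial receptor Tie2, which Tek encodes, and stabilizes vessels, whereas angiopoietin-2 is a context-dependent antagonist that is induced in sprouting endothelium. Tie1 is a related endothelial receptor without a high-affinity angiopoietin of its own that modulates Tie2. In healing bone, vessel invasion of the cartilage callus precedes its replacement by bone.

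The promoters of 3 receptor genes are given for reference because their transcripts lay in different cells, Tek and Tie1 in endothelial cells and Pdgfra in stromal cells. Each run covers 250 bases before to 50 after the transcription start in RefSeq, on GRCm38.p6. Capitals mark GGAA, the core letters recognized by ETS factors such as the endothelial factor Erg, and TTCC, the same letters read on the other strand. The Tek promoter lies at chr4:94739039-94739338 on the plus strand and holds 2 matches, that of Tie1 at chr4:118489800-118490099 on the minus strand holds 9, and that of Pdgfra at chr5:75152001-75152300 on the plus strand holds 4.
Tek: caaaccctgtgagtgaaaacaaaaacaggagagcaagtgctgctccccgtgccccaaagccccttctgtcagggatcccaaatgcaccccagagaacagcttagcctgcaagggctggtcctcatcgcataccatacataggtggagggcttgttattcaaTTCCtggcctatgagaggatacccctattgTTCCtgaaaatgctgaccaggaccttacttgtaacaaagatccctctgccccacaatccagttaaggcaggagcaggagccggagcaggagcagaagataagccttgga
Tie1: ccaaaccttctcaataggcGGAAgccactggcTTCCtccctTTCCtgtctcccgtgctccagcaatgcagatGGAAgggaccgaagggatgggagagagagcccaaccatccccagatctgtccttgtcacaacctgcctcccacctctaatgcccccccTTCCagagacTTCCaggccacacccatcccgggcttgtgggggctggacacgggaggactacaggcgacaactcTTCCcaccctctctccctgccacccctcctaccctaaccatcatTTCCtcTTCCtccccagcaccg
Pdgfra: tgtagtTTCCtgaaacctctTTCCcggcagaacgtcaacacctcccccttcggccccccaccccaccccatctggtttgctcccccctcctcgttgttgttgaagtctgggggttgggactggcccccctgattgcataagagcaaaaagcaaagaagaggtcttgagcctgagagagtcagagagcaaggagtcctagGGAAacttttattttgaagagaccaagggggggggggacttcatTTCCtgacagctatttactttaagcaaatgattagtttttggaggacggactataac
Among 32851 promoters of this length, 95.98% hold at least 1 match and the median is 3, and 1.59% hold at least as many as Tie1, 46.3% at least as many as Pdgfra and 84.6% at least as many as Tek. The matches are a description of letters in this window and not sites of binding. RefSeq promoter entries were matched for 6 of the 10 genes, and Pdgfb, Angpt1, Angpt2 and Pdgfrb were not among them.

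The libraries held 57626530 to 103784364 UMIs, with a median of 2554 to 9289.5 UMIs per barcode, and 41652 of 46944 barcodes were kept. In all, 222 barcodes occurred in more than 1 library. Library CKO3 stood apart: it held 53469 UMIs of Xist, a transcript of the inactive X chromosome in female cells, or 578 UMIs per 1000000 UMIs (CPM), against 0.0993 to 0.170 in the other 5 libraries, and 3 UMIs of the 4 Y-linked genes examined, against 9586 to 13516. This went against the description of the mice as male, and the tests between groups were therefore also run without CKO3, with the values given beside the results below. Piezo1 itself was at 59.4, 42.7 and 54.9 CPM in stromal-like cells of the CON libraries and at 99.5, 41.3 and 42.9 in those of the CKO libraries. It did not mark the CKO libraries as lower in this class, which held other cells beside chondrocytes. Its level in chondrocyte-like cells alone is not given here. The paper reports that immunofluorescence staining verified the knockout, and that Piezo1 was lower in a cluster of hypertrophic chondrocytes. In mural-like cells it was at 22.4, 19.4 and 22.3 in CON1 to CON3 and 41.5, 46.1 and 28.9 in CKO1 to CKO3. That comparison had a log2 fold change (CKO over CON) of 0.86 ± 0.27 (SE), with an unadjusted p of 0.00969 and an adjusted p of 0.966 from edgeR. The groups did not overlap, as for 9.13% of all genes tested in mural-like cells. The CKO values rested on 29, 21 and 50 UMIs. The deleted exons are not given in the sources used here, and counts from the 3′ end need not cover them, so these levels do not check the labels.

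Cells were named from marker genes that included none of the 10 genes, and neither these genes nor the pathway genes below were used to cluster them. The names therefore say which other markers a cell carried. Endothelial-like cells (5254, 103 to 1889 per library) held Pecam1 at 1068 to 1658 CPM and Cdh5 at 768 to 1381, whereas mural-like cells (1516, 37 to 592 per library) held them at 2.19 to 38.2 and 5.30 to 28.3. Mural-like cells held Rgs5 at 6961 to 11246 CPM and Notch3 at 488 to 975, against at most 47.4 and 5.36 in endothelial-like cells. Stromal-like cells (17124) included chondrocytes, osteoblasts, fibroblasts and marrow stroma, and immune-like cells (14050) included neutrophils, macrophages and osteoclasts. A stromal cluster of 4159 cells had a median of 760 UMIs. The median of stromal-like cells was 2256.5 UMIs in CON1 and 9252.5 to 16859 in the other libraries. No broad class was named for 3.50% to 22.2% of the cells of a library, and no subclass for 7870 cells. Markers of other classes were found in each class. The 13 stromal markers summed to 9351 to 22963 CPM in mural-like cells and 1433 to 5593 in endothelial-like cells. Both sums were highest in CON1. Col1a1 alone lay at a mean of 4097 CPM in mural-like, 910 in endothelial-like and 1083 in immune-like cells. Whether such RNA came from other cells or from the cells themselves was not tested. A cluster of 139 cells with markers of both mural and endothelial cells and a median of 15532 UMIs was left unnamed, and it held Pdgfrb at 485 and Tek at 56.9 CPM.

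Levels are given as CPM, the UMIs of a gene per 1000000 UMIs of the class in a library. UMIs count molecules from the 3′ end, so levels do not grow with the length of a transcript, and genes are compared on this scale only. No test was made between classes, and the order of levels is a description over 6 libraries.

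**Figure D1:**
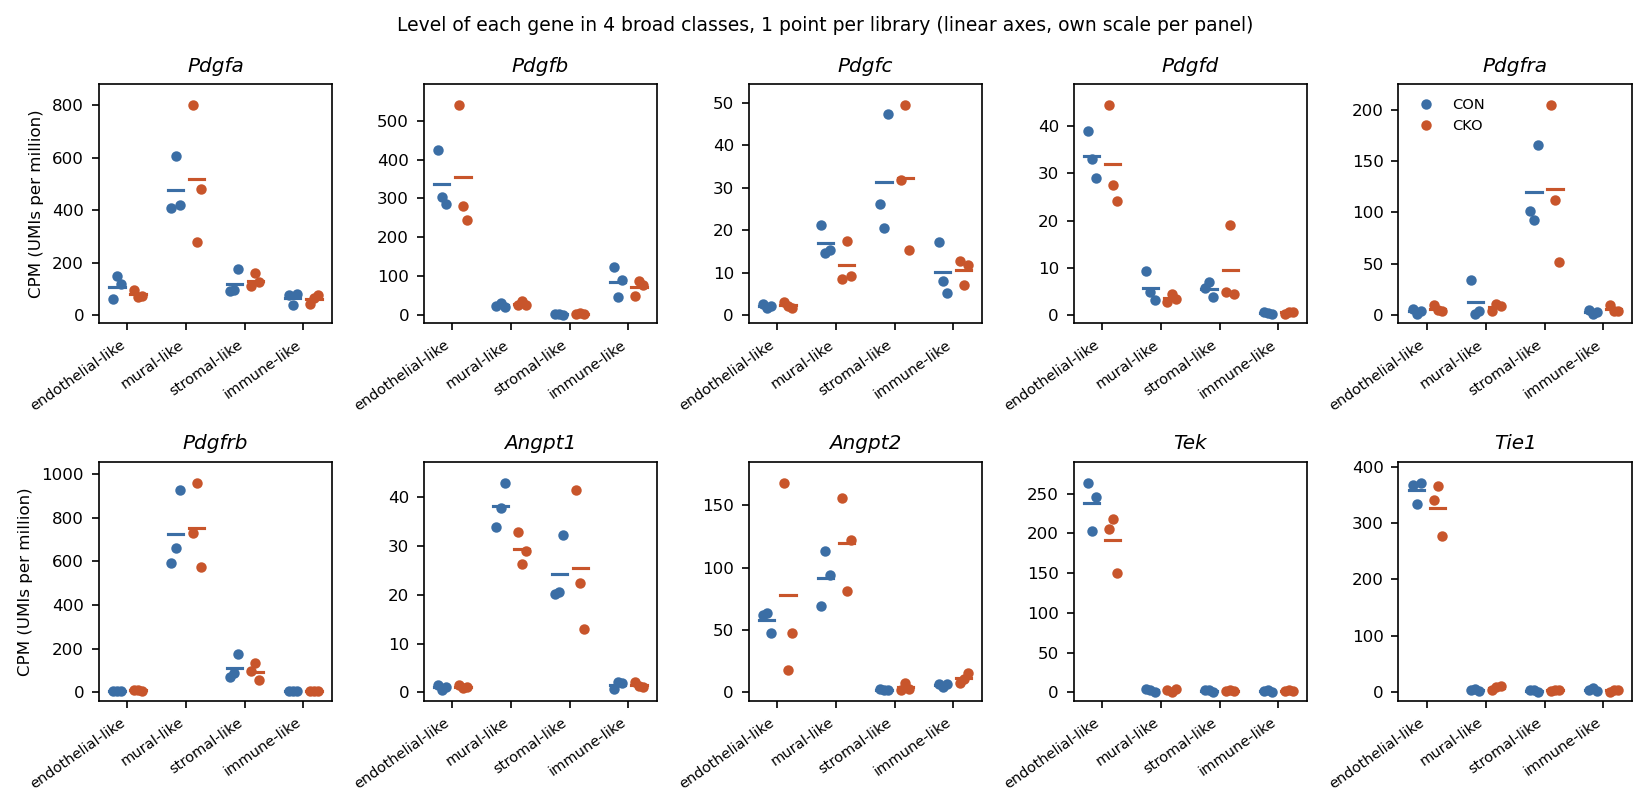
Level of each of the 10 genes in CPM (vertical axis, linear, with its own scale in each panel) in the endothelial-like, mural-like, stromal-like and immune-like cells of each library, with 1 point per library and the CON and CKO libraries in separate colours. Pdgfb, Pdgfd, Tek and Tie1 stood highest in endothelial-like cells, Pdgfa, Pdgfrb, Angpt1 and Angpt2 in mural-like cells, and Pdgfc and Pdgfra in stromal-like cells, and the points of the 2 groups lay over each other in the class where each gene was highest, except those of Angpt1 in mural-like cells.

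Pdgfb, the ligand that endothelial cells present to mural cells, was highest in endothelial-like cells. Its level there was 425, 304 and 285 CPM in CON1 to CON3 and 539, 281 and 245 in CKO1 to CKO3, a mean of 347 ± 113 (SD, n = 6). This was 4.39 times the mean in immune-like cells, at 78.9 ± 28.9 (SD, n = 6), and the ranges of the libraries did not overlap. Mural-like cells themselves held 27.1 ± 4.97 (SD, n = 6) and stromal-like cells 3.06 ± 1.09 (SD, n = 6). After each cell was thinned to 1000 UMIs, 23.05% of endothelial-like cells had a Pdgfb UMI, against 2.72% of mural-like cells and 0.561% of neutrophil-like cells, which stand here for a type not known to express the gene, while without thinning the shares were 71.6%, 15.6% and 1.48% at median depths of 7510, 6581 and 2129 UMIs. Thinning left out 17, 82 and 441 cells of these classes that held fewer UMIs.

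Within the endothelium Pdgfb was graded. Tip-like cells, the cells that lead a sprout and are marked here by genes such as Apln and Esm1, held 642, 530 and 475 CPM in CON1 to CON3 and 948, 417 and 367 in CKO1 to CKO3. Arterial-like cells followed at 440 ± 75.6 (SD, n = 6), capillary-like cells at 310 ± 66.3 (SD, n = 5), venous-like cells at 157 ± 77.8 (SD, n = 6) and lymphatic-like cells at 77.5 ± 49.3 (SD, n = 3). Tip-like cells exceeded arterial-like cells in 5 of 6 libraries and the ranges overlapped, and whether these neighbours differ was not tested. Outside vessels, the osteoclast-like cells, which resorb bone, held 203 ± 59.5 (SD, n = 6), and macrophage-like cells 75.7 ± 16.9 (SD, n = 6). Endothelial-like cells held 58.7% ± 14.2 (SD, n = 6) of all Pdgfb UMIs of a library and immune-like cells 31.4% ± 15.5 (SD, n = 6).

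Pdgfd, the other ligand that acts on PDGFR-β, was also highest in endothelial-like cells, at 39.0, 33.0 and 29.1 CPM in CON1 to CON3 and 44.4, 27.5 and 24.1 in CKO1 to CKO3. Stromal-like cells held 7.51 ± 5.80 (SD, n = 6) and mural-like cells 4.66 ± 2.37 (SD, n = 6). It was concentrated in arterial-like cells, where the levels were 148, 111 and 117 in CON1 to CON3 and 135, 103 and 84.4 in CKO1 to CKO3. The next subclass, capillary-like cells, held 39.4 ± 12.6 (SD, n = 5), and the ranges of the libraries did not overlap. The log2 ratio of Pdgfb to Pdgfd was 1.92 ± 0.14 (SD, n = 6) in arterial-like and 4.14 ± 0.37 (SD, n = 6) in tip-like cells. It lay between these in the other endothelial subclasses on average, and lymphatic-like cells held 2.37 ± 1.61 (SD, n = 3) with a lowest library of 0.85, below every arterial-like value. Because stromal-like cells were many, they held 51.3% ± 19.2 (SD, n = 6) of all Pdgfd UMIs and endothelial-like cells 42.0% ± 18.3 (SD, n = 6).

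Pdgfa, whose product binds PDGFR-α, was highest in mural-like cells, at 407, 605 and 420 CPM in CON1 to CON3 and 799, 279 and 482 in CKO1 to CKO3. The mean of 498 ± 181 (SD, n = 6) was 3.97 times that in stromal-like cells, at 126 ± 33.9 (SD, n = 6), with no overlap of the libraries. Both named mural subclasses held it, smooth muscle-like cells at 523 ± 109 (SD, n = 6) and pericyte-like cells at 381 ± 116 (SD, n = 5). Osteoblast-like cells, the bone-forming cells, came next at 282 ± 77.8 (SD, n = 6), and the ranges of all 3 overlapped from neighbour to neighbour. Stromal-like cells held 61.3% ± 19.4 (SD, n = 6) of all Pdgfa UMIs and mural-like cells 12.2% ± 9.30 (SD, n = 6).

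Pdgfc, a ligand activated by proteases such as tissue plasminogen activator, was a low transcript of stromal-like cells, where its lowest, median and highest levels were 15.4, 29.0 and 49.4 CPM. Mural-like cells held 14.4 ± 4.87 (SD, n = 6), below the stromal-like cells in 6 of 6 libraries although the ranges overlapped. Inflammatory fibroblast-like cells, marked by chemokine genes, held 70.7 ± 20.7 (SD, n = 6) and osteoblast-like cells 54.3 ± 12.4 (SD, n = 6). Stromal-like cells held 81.9% ± 10.7 (SD, n = 6) of its UMIs.

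Pdgfrb, the PDGF receptor that defines mural cells in many tissues, was at 593, 660 and 925 CPM in mural-like cells of CON1 to CON3 and at 729, 959 and 573 in those of CKO1 to CKO3. The mean of 740 ± 166 (SD, n = 6) was 7.16 times that in stromal-like cells, at 103 ± 44.4 (SD, n = 6), and exceeded it in every library. Endothelial-like cells held 7.01 ± 1.91 (SD, n = 6) and immune-like cells 5.89 ± 1.55 (SD, n = 6). After thinning, 51.5% of mural-like and 11% of stromal-like cells had a Pdgfrb UMI, against 0.458% of endothelial-like and 0.749% of neutrophil-like cells, and without thinning the shares were 90.7%, 43.7%, 4.62% and 1.79%. The thinned share in endothelial-like cells thus lay below that in neutrophil-like cells when all cells were pooled. By library the thinned shares overlapped, at 0 to 0.904% in endothelial-like and 0 to 1.48% in neutrophil-like cells. Whether these UMIs came from other cells was not tested. Thinning left out 2626 of the 17124 stromal-like cells, so the 11% refers to the 14498 that held enough UMIs.

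Pericyte-like cells (317 cells) held the highest Pdgfrb level of the 23 subclasses, with 954, 969 and 1129 CPM in CON1 to CON3 and 1487 and 777 in CKO2 and CKO3, while CKO1 had too few of these cells. The cluster was led by interferon-induced genes (Iigp1, Isg15, Ifih1) and its name rested on 3 markers, Abcc9, Steap4 and Vtn. The other pericyte markers of the list, Kcnj8, Higd1b, Cox4i2 and Ndufa4l2, did not pass the rule for naming, so the name is weakly held. Smooth muscle-like cells (590 cells) held 594 ± 176 (SD, n = 6) and were lower than the pericyte-like cells in 5 of 5 libraries, although the ranges overlapped. Marrow stromal-like cells, which express Lepr and Cxcl12, followed at 321 ± 99.9 (SD, n = 6), and fibroblast-like and tendon-like cells lay at 137 ± 49.4 and 155 ± 44.8 (SD, n = 6 each). Among the mural clusters, smooth muscle-like cells led by Rergl and Plin4 held the lowest level, 329 ± 71.5 (SD, n = 3).

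Pdgfra, the receptor of mesenchymal progenitors, was highest in stromal-like cells, at 102, 92.5 and 166 CPM in CON1 to CON3 and 204, 112 and 51.6 in CKO1 to CKO3. The mean of 121 ± 54.9 (SD, n = 6) was 11.5 times that in mural-like cells, at 10.5 ± 12.2 (SD, n = 6). Of the mural values, CON1 was by far the highest at 34.3, and it was also the library whose mural-like cells held the most RNA of the stromal markers, 22963 CPM, whose part in the result was not tested. Progenitor fibroblast-like cells, which carry Pi16 and Dpp4, held 330 ± 67.9 (SD, n = 6), and the other fibroblast, tendon, osteoblast and marrow stromal subclasses 133 to 193. A drop of 3.89 times with no overlap of the libraries separated fibroblast-like cells at 133 ± 94.3 (SD, n = 6) from chondrocyte-like cells at 34.3 ± 13.6 (SD, n = 6).

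The balance of the 2 PDGF receptors differed among stromal cells. The log2 ratio of Pdgfra to Pdgfrb was 3.09 ± 0.51 (SD, n = 6) in osteoblast-like cells and 1.33 ± 0.75 (SD, n = 6) in progenitor fibroblast-like cells, above 0 in 6 of 6 libraries in both. It was −1.18 ± 0.73 (SD, n = 6) in marrow stromal-like cells, above 0 in 1 of 6 libraries. Stromal-like cells held 94.3% ± 2.40 (SD, n = 6) of all Pdgfra UMIs and 67.2% ± 17.6 (SD, n = 6) of all Pdgfrb UMIs. Stromal-like cells thus held more of the Pdgfrb UMIs than mural-like cells in 5 of 6 libraries, and in CON2 the mural-like cells held 51.5% and the stromal-like cells 35.7%.

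**Figure D2:**
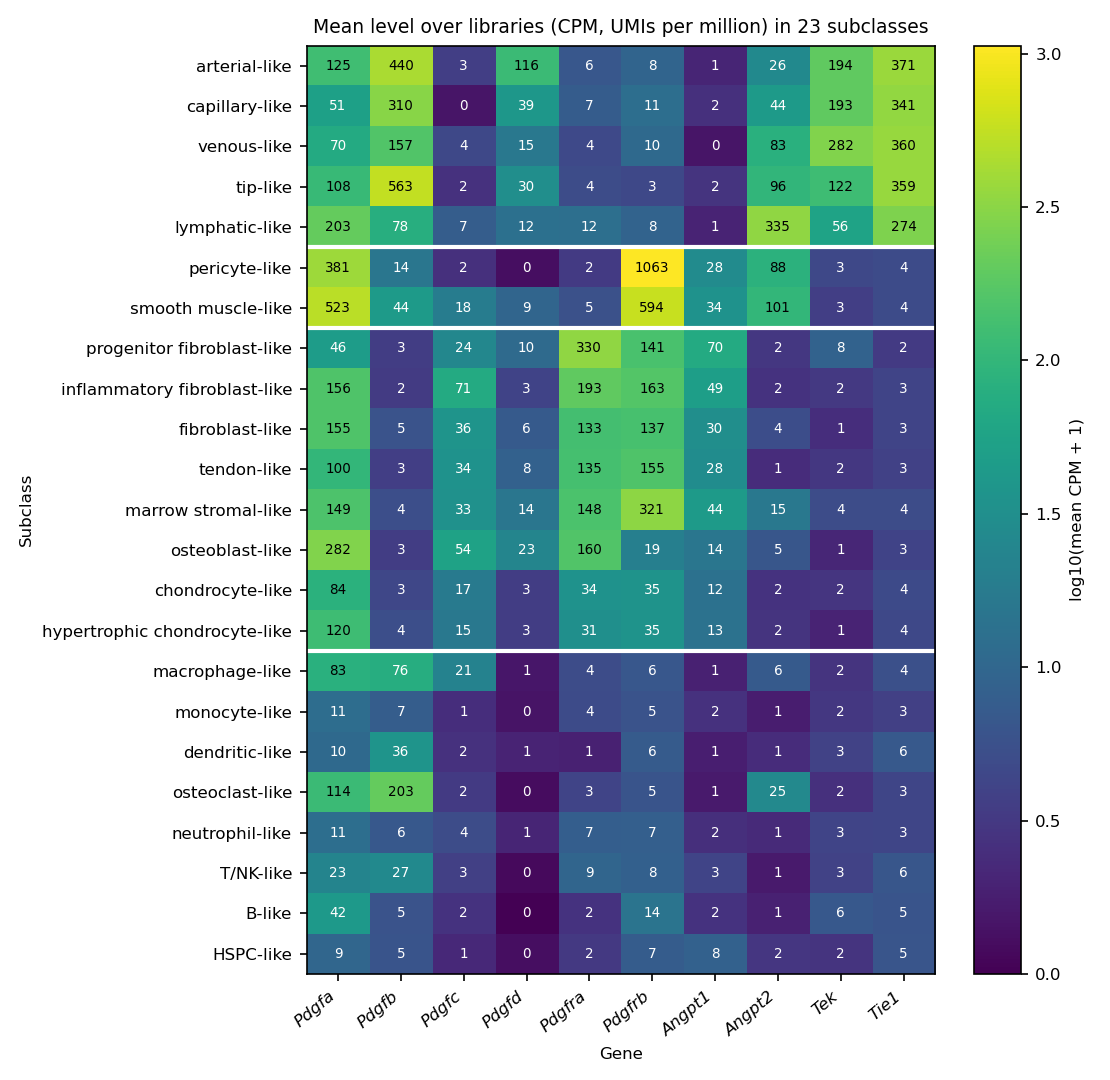
Mean level over libraries of each of the 10 genes (columns) in 23 subclasses of cells (rows), as log10 of the mean CPM plus 1 by colour. The endothelial rows hold Tek and Tie1, Pdgfb is brightest in tip-like and arterial-like cells, Pdgfrb in pericyte-like cells at 1063, and Angpt2 in lymphatic-like cells at 335 CPM.

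Angpt1, the activating ligand of Tie2, was at 33.8, 37.9 and 43.0 CPM in mural-like cells of CON1 to CON3 and at 32.9, 26.3 and 28.9 in those of CKO1 to CKO3. Stromal-like cells held nearly as much, with 20.2, 20.6 and 32.3 in CON1 to CON3 and 41.4, 22.4 and 13.01 in CKO1 to CKO3. Mural-like cells were the higher of both in 5 of 6 libraries, but the ranges overlapped, and whether the 2 classes differ was not tested. Progenitor fibroblast-like cells held the highest subclass level, 70.4 ± 21.9 (SD, n = 6), followed by inflammatory fibroblast-like cells at 49.4 ± 21.5 (SD, n = 6), marrow stromal-like cells at 44.2 ± 10.96 (SD, n = 6) and smooth muscle-like cells at 34.0 ± 17.3 (SD, n = 6).

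The mural clusters were uneven in Angpt1. Smooth muscle-like cells led by Colec11 and Gstm1 (168 cells) held 79.5 ± 0.84 CPM (SD, n = 3), and those led by Rergl and Plin4 (129 cells) held 12.5 ± 6.36 (SD, n = 3), while pericyte-like cells held 27.5 ± 10.6 (SD, n = 5). Stromal-like cells, far more numerous, held 84.9% ± 10.3 (SD, n = 6) of all Angpt1 UMIs and mural-like cells 7.92% ± 8.16 (SD, n = 6).

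Angpt2, the antagonist made by sprouting endothelium and mural cells, was at 69.2, 113 and 93.9 CPM in mural-like cells of CON1 to CON3 and at 156, 81.2 and 123 in those of CKO1 to CKO3. Endothelial-like cells held 62.4, 63.5 and 47.4 in CON1 to CON3 and 168, 18.1 and 47.3 in CKO1 to CKO3. The mural-like cells were higher in 5 of 6 libraries and the ranges overlapped, and when classes were set cell by cell the order turned, with 68.6 in mural-like and 73.1 in endothelial-like cells. Lymphatic-like cells were the highest subclass, at 449, 206 and 350 in CON2, CON3 and CKO3, the only libraries with enough of these cells. Their range did not overlap that of smooth muscle-like cells, the next at 101 ± 29.2 (SD, n = 6), and tip-like cells lay at 96.0 ± 29.97 (SD, n = 6).

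Angpt2 varied widely within the endothelium, where an unnamed cluster led by Mrc1 held 4.10 ± 4.15 (SD, n = 5), one led by Slc6a6 and Tacr1 held 12.5 ± 12.2 (SD, n = 6), and cycling cells held 95.7 ± 168 (SD, n = 6). Its UMIs were spread over the classes, and the largest class share was lower than for any other of the 10 genes. Endothelial-like cells held 41.4% ± 15.6 of them, mural-like cells 21.1% ± 11.8, immune-like cells 16.3% ± 13.2 and stromal-like cells 15.7% ± 10.99 (SD, n = 6 each).

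Tek, which encodes Tie2, was highest in endothelial-like cells, at 264, 203 and 246 CPM in CON1 to CON3 and 205, 218 and 150 in CKO1 to CKO3. The mean of 214 ± 39.4 (SD, n = 6) compared with 2.36 ± 1.85 (SD, n = 6) in mural-like, 2.03 ± 0.90 in immune-like and 1.99 ± 0.84 in stromal-like cells. Mural-like cells of CKO2 held 0 UMIs of Tek, which allows a level of up to 6.59 CPM at 3 counts in that library. After thinning, 19.6% of endothelial-like cells had a Tek UMI, against 0.209% of mural-like and 0.374% of neutrophil-like cells, and without thinning the shares were 71.3%, 1.78% and 0.861%. By library the thinned shares overlapped, at 0 to 0.901% in mural-like and 0 to 2.44% in neutrophil-like cells. Whether the Tek UMIs of mural-like cells came from other cells was not tested.

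Venous-like cells held the highest Tek level, 282 ± 44.6 (SD, n = 6), above arterial-like cells at 194 ± 53.2 (SD, n = 6) in 5 of 6 libraries with overlapping ranges. Tip-like cells held 122 ± 26.1 (SD, n = 6) and lymphatic-like cells 55.8 ± 22.3 (SD, n = 3), and these last 2 did not overlap. Lymphatic-like cells were thus lowest in Tek among these subclasses and highest in Angpt2. The log2 ratio of Angpt2 to Tek was 2.56 ± 0.18 (SD, n = 3) in lymphatic-like cells, −0.39 ± 0.57 (SD, n = 6) in tip-like cells, −2.20 ± 1.39 (SD, n = 6) in venous-like cells and −3.47 ± 1.73 (SD, n = 6) in arterial-like cells.

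Tie1, the partner receptor, was at 368, 334 and 372 CPM in endothelial-like cells of CON1 to CON3 and at 340, 365 and 277 in those of CKO1 to CKO3. Unlike Tek it was even along the vessel tree, with means of 341 to 371 in arterial-like, venous-like, tip-like and capillary-like cells and 274 ± 37.2 (SD, n = 3) in lymphatic-like cells. Each of the other 3 broad classes held at most 5.98 on average. Endothelial-like cells held 87.0% ± 6.12 (SD, n = 6) of all Tek UMIs and 87.2% ± 4.32 (SD, n = 6) of all Tie1 UMIs.

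The genes whose levels over the 23 subclasses ran most like those of each member were sought among 11405 genes by Pearson's r, a description over subclasses that share libraries. Pdgfrb was nearest to Mgat3 (r = 0.98), Bmp5 and Pde5a. Tek was nearest to Ptprb (r = 0.98), which encodes the phosphatase that dephosphorylates Tie2, and Tie1 to Egfl7 (r = 0.99), itself an endothelial marker used to name cells. Pdgfb was nearest to Plxnd1 (r = 0.91), Pdgfd to Mgll (r = 0.93), Pdgfra to Gxylt2 (r = 0.96), Pdgfa to Dip2c (r = 0.90), Pdgfc to Tmem119 (r = 0.90), Angpt1 to Ddr2 (r = 0.95) and Angpt2 to Arhgef7 (r = 0.89).

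The 26 other genes of these pathways, which process the ligands, bind the receptors or signal next to them, were spread over the classes. Of these, 9 were highest in endothelial-like cells, 9 in stromal-like, 5 in mural-like and 3 in immune-like cells. In the endothelial group Ptprb lay at 914 ± 365 CPM, S1pr1, a receptor that stabilizes junctions, at 476 ± 161, and Nos3, the endothelial nitric oxide synthase, at 133 ± 31.6 (SD, n = 6 each). In the mural group Itgb1, the β1 integrin subunit, lay at 1224 ± 392, and in the stromal group Lrp1, a co-receptor of PDGFR-β, at 414 ± 164 and Svep1, a ligand of Tie1, at 90.9 ± 50.5 (SD, n = 6 each). Nrp1, a co-receptor of PDGF and VEGF ligands, was held by both vessel classes, at 402 ± 134 in endothelial-like and 306 ± 86.5 in mural-like cells (SD, n = 6 each).

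The comparison of CKO with CON asked whether these signals differ in the callus when Piezo1 is deleted under the Col2a1 promoter. For each class and library the UMIs of its cells were summed, and edgeR's quasi-likelihood test was run over all genes, with Benjamini-Hochberg adjustment. None of the 10 genes passed an adjusted p of 0.05 in any of the 5 fits, and no gene of the whole table did, so that 0% of 20214 genes in all cells, 13743 in endothelial-like, 10768 in mural-like, 17969 in stromal-like and 15349 in immune-like cells were called. At an unadjusted p under 0.05 there were 308, 742, 433, 259 and 259 genes in these fits, and DESeq2 called 17, 4, 0, 0 and 1. Without CKO3 the test called 0 genes in each of the 5 fits, with 218, 481, 301, 244 and 176 genes at an unadjusted p under 0.05. The tests covered 10, 9, 7, 10 and 10 of the members, since Angpt1 in endothelial-like and Pdgfd, Tek and Tie1 in mural-like cells were too low to be tested.

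In all cells of a library the median log2 fold change (CKO over CON) of the 10 genes was −0.19, against −0.0059 for all genes tested, with 4 genes above and 6 below 0. Within the classes the medians lay above 0, at 0.07 in endothelial-like, 0.08 in mural-like, 0.18 in stromal-like and 0.18 in immune-like cells, against 0.0061, −0.0015, 0.0038 and 0.0069 for all genes tested, with 5 of 9, 4 of 7, 8 of 10 and 7 of 10 genes above 0. Without CKO3 the 5 medians were −0.19, 0.24, 0.14, 0.40 and 0.07. Over all cells Tek at −0.75 ± 0.55 (SE), Tie1 at −0.59 ± 0.60 (SE) and Pdgfrb at −0.42 ± 0.35 (SE) lay lowest, and Pdgfra highest at 0.40 ± 0.61 (SE). The others were Pdgfa at −0.06 ± 0.26, Pdgfb at −0.33 ± 0.45, Pdgfc at 0.20 ± 0.43, Pdgfd at 0.11 ± 0.46, Angpt1 at 0.28 ± 0.50 and Angpt2 at −0.35 ± 0.43 (SE). Tek over all cells was at 20.4, 59.9 and 21.8 CPM in CON1 to CON3 and 9.31, 26.7 and 18.3 in CKO1 to CKO3. Its log2 fold change there ranged from −1.12 to −0.077 over the alternatives. In such sums fewer cells of a type and less RNA per cell cannot be told apart.

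Within the classes the fold changes of the ligands lay within 2 SE of 0. The log2 fold change of Pdgfb was 0.11 ± 0.30 (SE) in endothelial-like and −0.14 ± 0.38 (SE) in immune-like cells, and that of Pdgfd was −0.06 ± 0.24 (SE) in endothelial-like and 0.93 ± 0.62 (SE) in stromal-like cells. The stromal value of Pdgfd rested on CKO2 at 19.1 CPM, since the other 5 libraries lay between 3.91 and 7.03. Without CKO2 this value was −0.17. CKO2 also held 1340 of the 2071 osteoblast-like cells, the stromal subclass with the highest mean Pdgfd level. There Pdgfd was at 20.6, 38.8 and 24.96 CPM in CON1 to CON3 and 9.22, 27.3 and 15.2 in CKO1 to CKO3. The fold change of a broad class does not separate the mix of its subclasses from the level in each. The part of this mix was not tested. Pdgfa gave 0.15 ± 0.39 (SE) in mural-like and 0.23 ± 0.36 (SE) in stromal-like cells, and Pdgfc 0.13 ± 0.49 (SE) in stromal-like and −0.56 ± 0.38 (SE) in mural-like cells.

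Those of the receptors and angiopoietins in their highest classes did so as well. Pdgfrb gave 0.08 ± 0.34 (SE) in mural-like and −0.16 ± 0.46 (SE) in stromal-like cells, and Pdgfra 0.06 ± 0.46 (SE) in stromal-like and −0.49 ± 1.1 (SE) in mural-like cells. Angpt1 gave −0.33 ± 0.26 (SE) in mural-like and 0.11 ± 0.39 (SE) in stromal-like cells. Angpt2 gave 0.42 ± 0.31 (SE) in mural-like and 0.41 ± 0.63 (SE) in endothelial-like cells, and the endothelial value rested on CKO1 at 168 CPM, from 103 cells, and was −0.69 without it. Tek gave −0.27 ± 0.20 (SE) and Tie1 −0.08 ± 0.19 (SE) in endothelial-like cells. Without CKO3 the log2 fold change turned to 0.063 for Pdgfd in endothelial-like and to 0.095 for Pdgfrb in stromal-like cells, and in all cells that of Pdgfra was 0.77, that of Angpt1 0.58 and that of Pdgfc 0.47. In stromal-like cells those of Pdgfra, Pdgfc and Angpt1 were then 0.41, 0.45 and 0.40, and in endothelial-like cells that of Pdgfb was 0.27. The lowest adjusted p of a member in all cells or a broad class, from edgeR's quasi-likelihood test on all libraries, was 0.802.

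**Figure D3:**
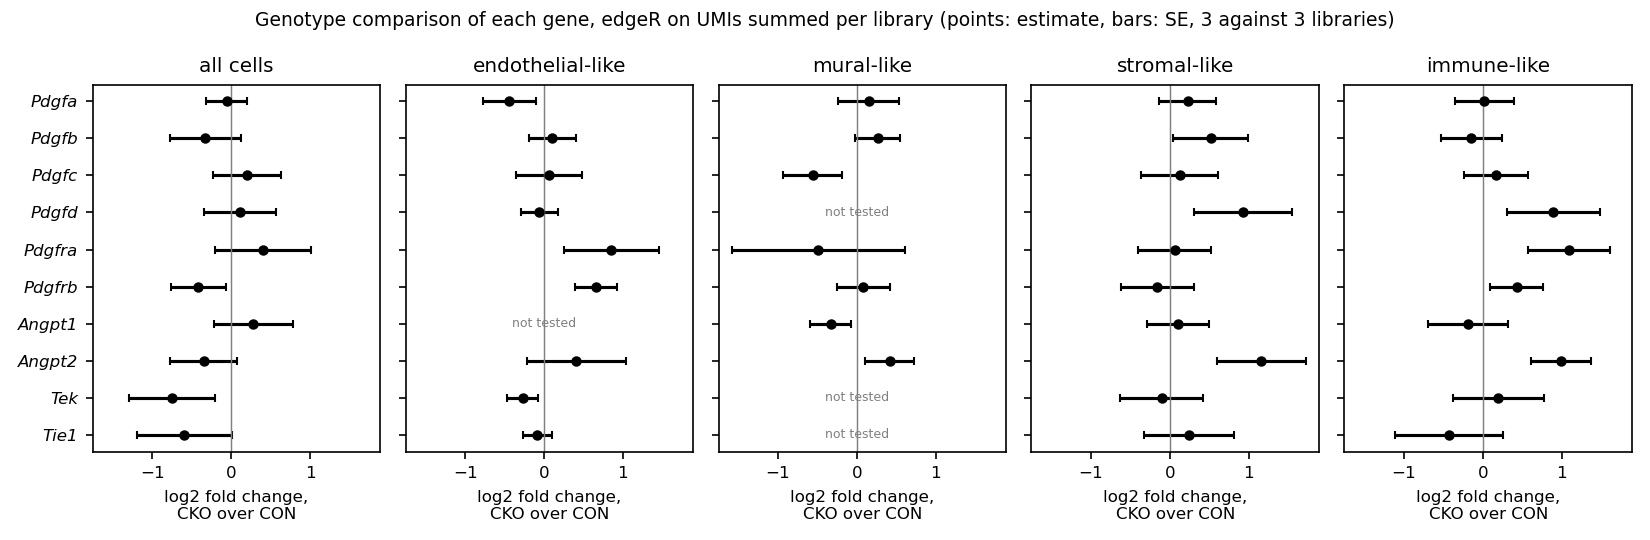
Log2 fold change, CKO over CON, of each of the 10 genes (rows) from edgeR on UMIs summed per library in all cells and in the 4 broad classes (panels), with points for the estimate and bars for its SE, 3 against 3 libraries. Most bars cross 0, including those of Pdgfb in endothelial-like cells at 0.11 and Pdgfrb in mural-like cells at 0.08, and none of the 10 genes passed the threshold.

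For 3 pairs of gene and class the libraries formed groups that did not overlap between CON and CKO, in 1 of 9 members tested in endothelial-like, 1 of 7 in mural-like and 1 of 10 in immune-like cells, and 0 of 10 in stromal-like cells and in all cells. Among all genes tested, the groups did not overlap for 10.8%, 9.13%, 4.31%, 3.86% and 4.58% in these fits, so the members' counts lay near the background. Angpt1 in mural-like cells was at 33.8 to 43.0 CPM in CON and 26.3 to 32.9 in CKO, and the CKO values rested on 23, 12 and 50 UMIs. Pdgfrb in endothelial-like cells was at 5.11 to 5.99 in CON and 7.001 to 9.81 in CKO, a log2 fold change of 0.66 ± 0.27 (SE) with an unadjusted p of 0.0366 and an adjusted p of 0.802 from edgeR. Without CKO3 the log2 fold change was −0.39 ± 0.32 (SE) for Angpt1 in mural-like and 0.74 ± 0.31 (SE) for Pdgfrb in endothelial-like cells. The mural markers summed to 724 to 864 CPM in endothelial-like cells of CON and 519 to 790 in those of CKO, and the stromal markers to 1433 to 5593 and 3613 to 4834, whose part in the result was not tested.

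The third was Angpt2 in immune-like cells, at 6.99, 4.42 and 6.73 CPM in CON1 to CON3 and 7.58, 10.5 and 15.5 in CKO1 to CKO3. Its log2 fold change was 1.00 ± 0.38 (SE), with an unadjusted p of 0.0301 and an adjusted p of 1.00 from edgeR, and without CKO3 it was 0.63 ± 0.38 (SE). Without CKO3 these 3 pairs and Pdgfrb in immune-like cells were the ones that did not overlap. These were 1 of 9 members tested in endothelial-like, 1 of 7 in mural-like and 2 of 10 in immune-like cells, and 0 of 10 in stromal-like cells and in all cells. The share over all genes was not determined without CKO3, so these counts have no background to be read against. Osteoclast-like cells held the highest Angpt2 level of the immune subclasses, at 17.3, 23.6 and 16.1 in CON1 to CON3 and 37.0, 23.4 and 34.2 in CKO1 to CKO3, where the log2 fold change was 0.78 ± 0.25 (SE) with an adjusted p of 0.989 from edgeR, and 0.59 ± 0.28 (SE) without CKO3. The 7 osteoclast markers summed to 1996 to 5043 CPM in immune-like cells of CON and 2492 to 7239 in those of CKO, and their part in the result was not tested.

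In mural-like and stromal-like cells RNA of macrophage markers lay higher in the CKO libraries, without overlap of the groups. The sums of endothelial, mural, stromal, neutrophil, erythroid and osteoclast markers overlapped between the groups in every broad class. The groups overlapped in endothelial-like cells and in immune-like cells, where the sums were 2773 to 5822 CPM in CON and 4862 to 5658 in CKO. The 8 genes summed to 38.1 to 73.6 CPM in mural-like cells of CON and 96.6 to 332 in those of CKO, to 34.9 to 67.5 and 99.5 to 190 in stromal-like cells, and to 50.04 to 119 and 102 to 266 in endothelial-like cells, and none of the 8 was at 0. Its part in the members' values was not tested.

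Among 22 subclasses, 117 tests of members passed the filter, and 0 were called by edgeR at an adjusted p of 0.05, with 7 at an unadjusted p under 0.05. The share of all genes at that unadjusted p is not given here for the subclasses, so the 7 are not read as a result. Over all genes 6 of 9552 were called in HSPC-like cells (0.0628%, blood progenitors), 1 of 3073 in B-like cells (0.0325%) and 0% in the other 20 subclasses. The lowest p of a member, 0.00427, was that of Pdgfa in HSPC-like cells, with a log2 fold change of 1.82 ± 0.47 (SE) and an adjusted p of 0.331. Without CKO3 this log2 fold change was 1.59, with CKO2 alone left in its group. CON1 and CKO1, with 2 and 4 HSPC-like cells, were left out of these fits. The mean Pdgfa level of HSPC-like cells was 9.11 ± 6.23 CPM (SD, n = 4), the lowest of the 23 subclasses.

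None of the 26 pathway genes was called by edgeR either, of 26, 24, 21, 25 and 25 tested in all cells, endothelial-like, mural-like, stromal-like and immune-like cells. Ptprb in mural-like cells alone reached an unadjusted p under 0.05, with a log2 fold change of 1.37 ± 0.60 (SE) and an adjusted p of 0.966. Without CKO3 it was 0.76 ± 0.78 (SE), 0 genes of the list were called, and Klf2 in mural-like and Pcsk5 in immune-like cells were those at an unadjusted p under 0.05. The endothelial markers summed to 446 to 607 CPM in mural-like cells of CON and 520 to 906 in those of CKO, and their part in this result was not tested. The median log2 fold change of the list was −0.25 in endothelial-like and 0.18 in mural-like cells, against 0.0061 and −0.0015 over all genes tested, and −0.13 and 0.11 without CKO3.

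The place of the transcripts was then compared between groups by the share of a library's UMIs held by a class, with a two-sided exact permutation test over the 20 assignments of 6 libraries, whose smallest p is 0.1, and Benjamini-Hochberg adjustment over 7 values. With this design no value could reach 0.05. Mural-like cells held 21.7%, 51.5% and 32.5% of the Pdgfrb UMIs of CON1 to CON3 and 10.3%, 6.83% and 20.2% of those of CKO1 to CKO3. The groups did not overlap, the CKO mean was lower by 22.8 percentage points, and the exact p was 0.1, the smallest possible, with an adjusted p of 0.35. Without CON2, the highest library, the difference was −14.7 percentage points. Of all UMIs, mural-like cells held 1834376 of 64670439, 4172971 of 67381907 and 3770381 of 70511764 in CON1 to CON3. They held 699630 of 54445268, 455490 of 89040033 and 1729670 of 92532697 in CKO1 to CKO3. This share too was lower in every CKO library than in every CON library. Within mural-like cells the mean level of Pdgfrb was 726 CPM in CON and 754 in CKO, and that of Angpt1 was 38.2 and 29.4. How far the lower shares of Pdgfrb and Angpt1 UMIs followed the lower share of all UMIs was not tested.

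Cells of both vessel classes were counted as well. CON1 to CON3 held 42.6, 28.4 and 62.3 mural-like cells per 100 endothelial-like cells, a mean of 44.4 ± 17.0 (SD, n = 3), and CKO1 to CKO3 held 35.9, 7.13 and 17.2, a mean of 20.1 ± 14.6 (SD, n = 3). The groups overlapped, since CKO1 at 35.9 exceeded CON2 at 28.4, and the exact p was 0.2 with an adjusted p of 0.35. The difference of −24.4 was −15.4 without CON3 and ranged from −42.3 to −14.0 over the alternatives. Pdgfrb per mural-like UMI was, as given above, 0.08 ± 0.34 (SE) apart on the log2 scale. The share of Angpt1 UMIs in mural-like cells was 13.2% ± 8.80 in CON and 2.67% ± 2.53 in CKO (SD, n = 3 each, exact p = 0.2, adjusted p = 0.35), and the difference of −10.5 percentage points was −5.70 without CON2.

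For the other values the exact p was 0.2 or more. Endothelial-like cells held 62.0% ± 18.1 of the Pdgfb UMIs in CON and 55.3% ± 12 in CKO (SD, n = 3 each, exact p = 0.6, adjusted p = 0.7), and 46.6% ± 15.9 and 36.3% ± 16.5 of the Angpt2 UMIs (SD, n = 3 each, exact p = 0.5, adjusted p = 0.7). The difference of the Pdgfb share, −6.78 percentage points, was 2.20 without CON2, −0.48 without CKO2, −15.9 without CON3 and −12.4 without CKO1. That of the Angpt2 share, −10.3 percentage points, was −2.11 without CON2, −1.39 without CKO2, −18.0 without CON3 and −17.6 without CKO1. Stromal-like cells held 96.0% ± 1.22 and 92.7% ± 2.22 of the Pdgfra UMIs (SD, n = 3 each, exact p = 0.2, adjusted p = 0.35), and the difference of −3.26 percentage points was −2.05 without CKO2. The log2 ratio of Angpt2 to Angpt1 over all cells was −0.09 ± 1.33 and −0.42 ± 1.02 (SD, n = 3 each, exact p = 0.8, adjusted p = 0.8). Without CKO3 the differences of the Pdgfrb share, the cell ratio and the Angpt1 share were −26.7, −22.9 and −11.96, and those of the Pdgfb, Angpt2 and Pdgfra shares and the log2 ratio were −7.43, −11.9, −3.51 and −0.74, with adjusted p of 0.467 to 0.7 by the exact test.

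**Figure D4:**
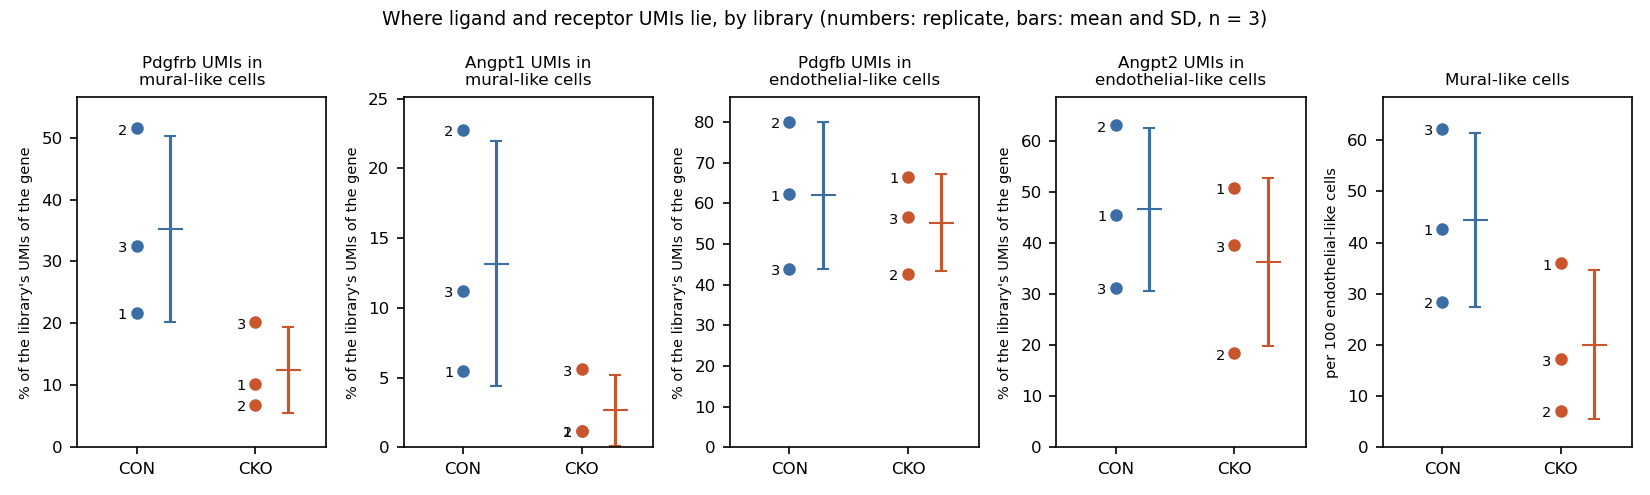
Share of a library's UMIs of Pdgfrb, Angpt1, Pdgfb or Angpt2 held by a class, and the number of mural-like cells per 100 endothelial-like cells (vertical axes, 1 panel each) in each library, with the CON and CKO libraries in columns, numbers for the replicate and bars for the mean and SD (n = 3). The share of Pdgfrb UMIs in mural-like cells is the 1 panel with a downward step and no overlap, from 21.7% or more in CON to 20.2% or less in CKO.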

How the data were processed

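Raw UMI counts per gene and cell were deposited by the authors for 6 libraries made with the 10x Chromium 3′ kit, and per the file headers they came from Cell Ranger 6.1.1 for replicate 1 of each group and 6.1.2 for the others. GRCm38 is the build named in the submitters' processing notes. The feature lists held 55357 or 55450 genes, of which the 52081 shared by all libraries were used. Barcodes passed (44698) with 500 UMIs and 200 genes or more and a mitochondrial share of 20% or less, and 3046 doublets were removed by Scrublet score at 0.8% per 1000 cells. Libraries were integrated with Seurat 5.3.0 (2000 variable genes, 30 components) and clustered by Leiden (leidenalg 0.10.2, 20 neighbours, resolution 0.8) without the members, the pathway genes and Piezo1. Clusters were named from marker lists when at least 3 markers passed, and a library with fewer than 10 cells of a class was left out.

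Counts were summed per library and class and tested with edgeR 4.0.16 (quasi-likelihood test, filterByExpr, TMM) in R 4.3.3, CKO against CON, with Benjamini-Hochberg adjustment over all genes tested and a threshold of 0.05. The SE of a log2 fold change was derived from the F statistic. Shares and ratios were tested with exact permutation tests in Python 3.11.15 with NumPy 2.4.6. Shares of cells with a UMI used cells thinned to 1000 UMIs, and the level that a count of 0 allows was set at 3 counts. Intervals of this kind cover counting error only. The scripts were tested on simulated counts. A log2 fold change is printed for each member in all cells and in the 2 broad classes where its mean level was highest, and other tests are counted, except those with groups that did not overlap or the lowest p, which were chosen after their values were seen. The members, marker lists and pathway list were chosen with earlier results of these data known, and the thresholds for naming clusters were set after the data were seen. Alternatives were another normalization, filter and test (DESeq2 1.42.0), a replicate block, stricter cell filters, no doublet removal, no integration, other resolutions, classes set per cell and leaving out each library.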

Additional observations from a re-analysis of the deposited data

How the results depend on the processing

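No member passed the threshold in a broad class or in all cells under any alternative run, and 451 of 507 alternative log2 fold changes kept their sign, while 56 turned. In all cells and the 4 broad classes counts of called genes were 0 except that DESeq2 called 17 in all cells, 4 in endothelial-like and 1 in immune-like cells, and that without a filter on low counts 147 were called in endothelial-like and 73 in mural-like cells. In the subclasses DESeq2 called 0 to 50 genes and the fit without that filter 6 to 259, with the highest counts in HSPC-like cells. The 1 member test called was Pdgfa in HSPC-like cells without the filter, where CON1 and CKO1 had too few cells and were left out. In the broad classes leaving out libraries gave 0 to 1 calls in endothelial-like cells and 0 to 20 in mural-like cells, the 20 without both libraries of replicate 1, and without CKO1 the count was 1 in each. With classes set per cell, the log2 fold change in mural-like cells turned to −0.12 for Pdgfa, 0.39 for Pdgfc, −0.13 for Pdgfrb and 0.10 for Angpt1, and to −0.024 for Angpt1 in stromal-like cells. Without integration that of Pdgfra in mural-like cells was 0.57.

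Leaving out libraries, the log2 fold changes that turned ranged in all cells from −0.22 to 0.16 for Pdgfa, −0.68 to 0.12 for Pdgfb, −0.12 to 0.81 for Pdgfc, −0.36 to 0.52 for Pdgfd, −0.41 to 1.07 for Pdgfra, −0.74 to 0.18 for Pdgfrb, −0.45 to 0.83 for Angpt1, −0.65 to 0.25 for Angpt2 and −0.94 to 0.19 for Tie1. In endothelial-like cells they ranged from −0.26 to 0.27 for Pdgfb, −0.29 to 0.063 for Pdgfd, −0.70 to 0.90 for Angpt2 and −0.15 to 0.018 for Tie1, and in mural-like cells from −0.34 to 0.44 for Pdgfa, −1.14 to 2.00 for Pdgfra and −0.14 to 0.46 for Pdgfrb. In stromal-like cells the ranges were −0.40 to 0.92 for Pdgfc, −0.17 to 1.28 for Pdgfd, −0.55 to 0.76 for Pdgfra, −0.54 to 0.64 for Pdgfrb and −0.47 to 0.69 for Angpt1, and in immune-like cells −0.40 to 0.33 for Pdgfb. The difference of the Pdgfb share ranged from −16.5 to 2.20 percentage points and that of the log2 ratio of Angpt2 to Angpt1 from −1.05 to 0.43. The cause was not tested.

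The difference of the Pdgfrb share in mural-like cells stayed below 0 in all 17 alternatives, from −29.6 to −14.7 percentage points, and its adjusted p ranged from 0.233 to 0.7. Replicate numbers are shared between the groups. Same-numbered libraries deviated together at r of −0.09 to 0.28 in mural-like and −0.07 to 0.29 in endothelial-like cells. The range was −0.18 to 0.25 in stromal-like and −0.13 to 0.11 in immune-like cells. In all cells it was −0.04 to 0.45, highest for replicate 1. Not every library correlated best with its own number, so the numbers are not treated as pairs. With the number as a replicate block 0 genes were called in all 5 fits, and the log2 fold change turned to −0.0085 for Pdgfra in stromal-like cells, 0.23 for Pdgfra in mural-like cells and −0.059 for Angpt2 in endothelial-like cells, and the 7 exact tests, an alternative chosen after seeing the data, then had a smallest p of 0.25.

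The main limits are the 37 to 592 mural-like cells of a library, with 12 Angpt1 UMIs in CKO2, and the 3 libraries a group, which cannot give an exact p under 0.1. Replicate 1 of both groups was counted by another Cell Ranger version, and leaving out both its libraries is among the alternatives. Removing a cluster of cells with few UMIs, and adding the cells with both mural and endothelial markers to the mural-like cells, were alternatives chosen after seeing the data, and no call was made under either.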

Other observations

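Some mural-like clusters could not be named. A cluster of 179 cells led by Mmp13 and Stc1, a collagenase and a secreted calcium-regulating hormone, held Pdgfrb at 946 ± 244 CPM (SD, n = 5) and Pdgfa at 393 ± 227 (SD, n = 5). A cluster of 139 cells led by Colec11, Slco2a1 and Ccl19 held Angpt2 at 136 ± 44.5 (SD, n = 3) and Pdgfrb at 808 ± 136 (SD, n = 3), with 0 Tek UMIs. These are levels of clustered cells over the libraries with at least 10 of them, and no test was made on them.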
